A study of Mus musculus with 12 samples.

Results

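Regions marked by trimethylated lysine 9 of histone H3 (H3K9me3, a histone mark of heterochromatin) were examined across the H19/Igf2, Kcnq1 and Snrpn imprinted domains of mouse chromosome 7. A region belonged to a domain when it overlapped 142.57 to 142.67 Mb (H19/Igf2), 142.96 to 143.47 Mb (Kcnq1) or 59.9 to 62.5 Mb (Snrpn) of mm10. This rule gave 9, 20 and 39 regions, 68 in all, of the 68291 regions in the authors' deposited table. The study profiled Tex19.1-/- (KO) embryonic stem cells and Tex19.1+/- (Het) cells derived from E14Tg2a, a stem cell line of the 129/Ola strain, at passages 12 to 20, with 3 immunoprecipitated and 3 input libraries per genotype. Its comparison addresses which regions gain or lose the mark without Tex19.1, which is active in the germline and in pluripotent cells of mammals. Both genotypes carry a Tex19.1 mutation on at least 1 allele, so neither is wild type. The labels name no clones and do not say whether libraries of a genotype came from separate cultures, and differences between them could be technical. The genotype field contradicts the title in 6 of the 12 libraries, and titles were followed.

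The authors' deposited table gives each region a log2 fold change between the genotypes, an average log2 CPM (reads in the region relative to library size), the p-value of the comparison and its FDR (adjusted over all regions), with no values of single libraries. It does not state which genotype was on top of the fold change, so signs are given as deposited. The standard error (SE) beside each value was derived from the authors' p-value, and 95% intervals rest on it. These errors may leave out variation between libraries. At like signal the median derived error was 0.151 at 41.3 CPM, 0.120 at 64.2 CPM and 0.068 at 201 CPM. It fell close to the inverse square root of the CPM, as error from read counts alone does. The intervals may therefore hold little of the variation between libraries and be too narrow. A region was called at an FDR below 0.05.

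In an imprinted domain, genes are expressed from the allele of a single parent under the control of a nearby imprinting control region, whose DNA is methylated on 1 parental allele only. In mouse embryonic stem cells the zinc finger protein ZFP57 binds the methylated copy and, through TRIM28 and the methyltransferase SETDB1, brings H3K9me3 to it. The control region of H19 and Igf2 lies between them, close to H19, and is methylated on the paternal copy. Those of the other domains lie at the starts of the noncoding RNA Kcnq1ot1 and of Snrpn, and are methylated on the maternal copy. Each value below sums both parental alleles, which the table does not separate, and DNA methylation was not analysed here.

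Promoter sequences are shown for the starts on which the results turn, from RefSeq on GRCm38.p6, the assembly that mm10 names. Each holds 250 bases before and 50 after the start, and capitals mark CpG dinucleotides, the sites of DNA methylation. The first 3 windows lay wholly inside an H3K9me3 region, and the last, at Ndn, lay 25518 bp from the nearest one. In order they are the shared start of Snurf and Snrpn (chr7:60005150-60005449, minus strand), the Kcnq1ot1 start (chr7:143296498-143296797, minus strand), the most upstream listed Igf2 start (chr7:142666767-142667066, minus strand) and the Ndn start (chr7:62348027-62348326, plus strand).
Snurf and Snrpn: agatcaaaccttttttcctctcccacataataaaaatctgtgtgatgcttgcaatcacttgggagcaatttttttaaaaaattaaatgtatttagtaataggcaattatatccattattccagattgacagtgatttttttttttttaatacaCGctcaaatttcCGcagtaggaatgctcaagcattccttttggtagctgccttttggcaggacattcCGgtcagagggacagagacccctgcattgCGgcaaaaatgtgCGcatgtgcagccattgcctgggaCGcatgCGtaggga
Kcnq1ot1: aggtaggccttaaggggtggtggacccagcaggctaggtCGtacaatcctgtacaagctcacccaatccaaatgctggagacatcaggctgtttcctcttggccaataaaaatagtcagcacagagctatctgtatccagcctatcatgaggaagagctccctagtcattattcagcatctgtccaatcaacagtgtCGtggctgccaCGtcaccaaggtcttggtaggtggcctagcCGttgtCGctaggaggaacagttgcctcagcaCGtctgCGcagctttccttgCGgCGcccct
Igf2: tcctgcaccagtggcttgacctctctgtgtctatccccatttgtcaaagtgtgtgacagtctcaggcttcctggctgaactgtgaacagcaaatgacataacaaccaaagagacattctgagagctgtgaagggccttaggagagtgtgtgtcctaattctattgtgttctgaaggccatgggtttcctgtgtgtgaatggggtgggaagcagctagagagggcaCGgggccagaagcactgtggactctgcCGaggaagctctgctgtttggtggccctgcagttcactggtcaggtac
Ndn: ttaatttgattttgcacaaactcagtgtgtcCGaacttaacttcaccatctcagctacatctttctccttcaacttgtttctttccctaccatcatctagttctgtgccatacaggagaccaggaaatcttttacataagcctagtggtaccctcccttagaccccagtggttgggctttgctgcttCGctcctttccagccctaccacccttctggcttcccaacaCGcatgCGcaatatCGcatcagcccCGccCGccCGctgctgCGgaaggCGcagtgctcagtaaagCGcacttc

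The windows held 7 CpG at Snurf and Snrpn, 9 at Kcnq1ot1, 2 at the Igf2 start and 11 at Ndn, against a median of 7 over 32544 promoter windows of the same length. Of the 9 genes, 6 had a promoter entry, and H19, Kcnq1 and Cdkn1c had none. The letters TGCCGC, the core of the ZFP57 motif, were searched on both strands. Among the 3 windows inside a region, the one at Snurf and Snrpn held a match, on the reverse strand across the start site. Of the 11 windows of Igf2, Snrpn, Ndn, Magel2, Mkrn3, Ascl2 and Peg12 outside regions, 1 held a match, at another Igf2 start (start site 142661271). The share was 11.7% of all promoter windows. A match is a description of the letters and not a binding site.

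In the H19/Igf2 domain the mark was concentrated in a pair of broad regions, and neither was called. H19 is a noncoding RNA of the maternal allele that hosts the microRNA Mir675, and Igf2 encodes a paternally expressed growth factor. The strongest of the 68 regions (chromosome 7, 142576012 to 142586286) covered 2134 bp of the H19 body, with Mir675, and a further 8140 bp on the side of Igf2. It was 10274 bp wide and had 201 CPM in the authors' deposited table, which put it at percentile 99.8 of all regions for both width and signal and at 97.9 for CPM per kb. Its log2 fold change in the authors' deposited table was 0.08 (derived SE 0.07, 95% interval -0.05 to 0.21, p = 0.245, FDR 1). This interval spans ratios from 0.964 to 1.15. Among the 335 regions of like signal (log2 CPM within 0.5), 21 were called in the authors' deposited table, the smallest at an absolute change of 0.24.

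The other broad region (142665631 to 142671610) covered the most upstream Igf2 start, 4794 bp before it and part of the antisense gene Igf2os. The authors' deposited table gave it 94.99 CPM and a log2 fold change of -0.02 (derived SE 0.10, interval -0.21 to 0.18, FDR 1), a value whose sign turns with the scaling (0.04 relative to the rest of chromosome 7). The other 3 listed Igf2 starts lay 4360, 6827 and 8135 bp from it, outside any region. The microRNA Mir483, in Igf2, lay 10.6 kb from the nearest region. Both broad regions together held 88.7% of the domain's summed CPM.

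The other 7 regions of the domain were weak, at 3.68 to 7.17 CPM, with log2 fold changes from -0.998 to 0.42 in the authors' deposited table, 6 of them negative. The largest was in a region 470 bp from H19 on the side away from Igf2 (142574367 to 142575060), at -0.998 with a derived SE of 0.46 (p = 0.0316, FDR 0.942) in the authors' deposited table. The next one (142575268 to 142575727), over the end of H19, had -0.56 with a derived SE of 0.56 (FDR = 1) in the authors' deposited table. At the signal of the first of these, 5.63 CPM, the typical error puts a call at an absolute change of about 1.85. Of 25015 regions of like signal 4 were called in the authors' deposited table, the smallest at 1.51.

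**Figure D1:**
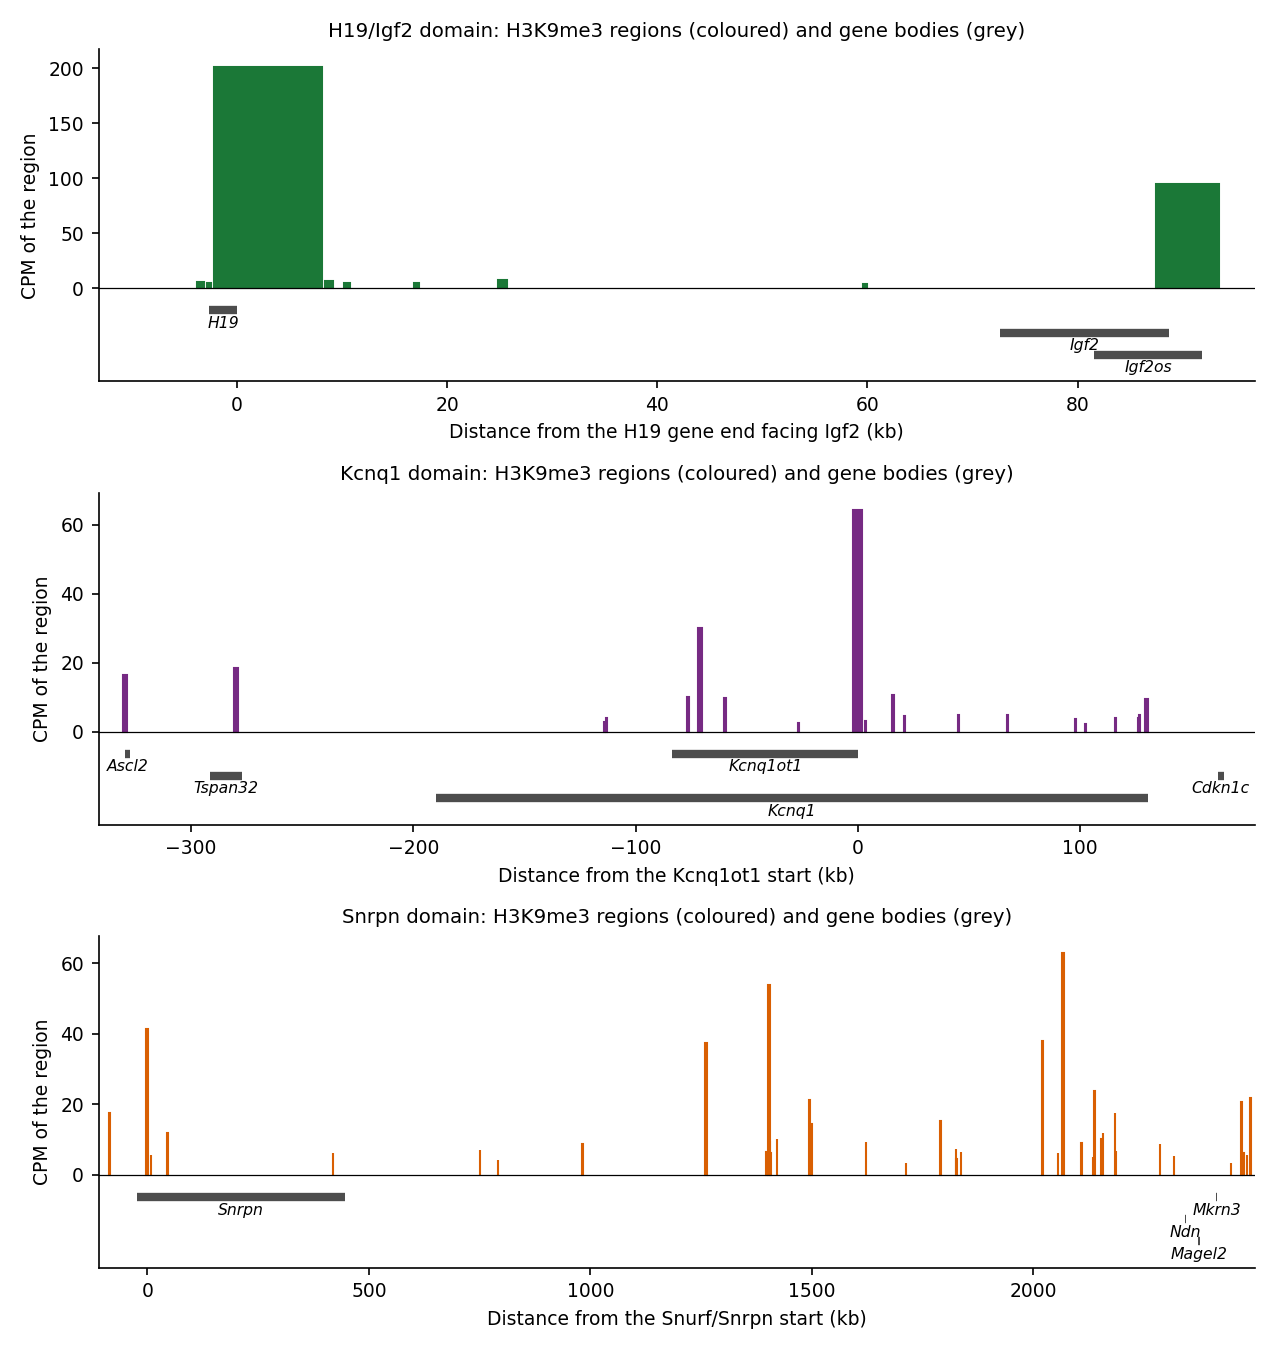
H3K9me3 regions along each domain. The x axes give the distance in kb, in mm10 direction, from the H19 gene end that faces Igf2, from the Kcnq1ot1 start or from the shared start of Snurf and Snrpn. Bar height gives the region's CPM in the authors' deposited table and bar width its extent, drawn at least 1 point wide; grey bars are gene bodies. The region at H19 reaches 201 CPM, that at the Kcnq1ot1 start 64.2 CPM and that at the start of Snurf and Snrpn 41.3 CPM, and no bar stands over Cdkn1c, Ndn, Magel2 or Mkrn3.

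In the Kcnq1 domain the strongest region lay over the Kcnq1ot1 start and was not called. Kcnq1ot1 is a long noncoding RNA of the paternal allele that runs antisense inside Kcnq1, a potassium channel gene, and silences its neighbours on that allele. The region (143294203 to 143298493) ran from 1946 bp before the Kcnq1ot1 start to 2344 bp into the RNA, and had 64.2 CPM, percentile 96.6 of all regions. Its log2 fold change was -0.07 in the authors' deposited table (derived SE 0.12, interval -0.30 to 0.17, FDR 1). Its sign turned under 1 of the 2 scalings by like signal described in the closing section. The interval spans ratios from 0.810 to 1.12. Of 3177 regions of like signal, 52 were called, the smallest at an absolute change of 0.40 in the authors' deposited table.

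A second region inside Kcnq1ot1 (143224797 to 143226326) was narrow and dense, with 29.9 CPM over 1529 bp, percentile 97.9 for CPM per kb against 97.9 at H19. Its log2 fold change in the authors' deposited table was -0.15 (derived SE 0.18, FDR 1). The other 3 regions inside Kcnq1ot1 had 2.45 to 9.95 CPM and log2 fold changes of -0.45, -0.03 and 0.24 in the authors' deposited table.

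The 13 regions in Kcnq1 but outside Kcnq1ot1 were all weak, at 2.16 to 10.6 CPM. Their log2 fold changes in the authors' deposited table ranged from -0.87 to 0.70 with a median of -0.42, 9 negative and 4 positive. On the rest of chromosome 7, regions under 16 CPM had a median of -0.03, with 1656 negative and 1418 positive. None of the 13 had an unadjusted p below 0.05, against 4.74% of all regions, a share at which 13 regions would give less than 1. The one farthest from 0 (143412220 to 143412693) had -0.87 with a derived SE of 0.63, at 3.94 CPM (p = 0.169, FDR 1), in the authors' deposited table. A region 1266 bp from the one at the Kcnq1ot1 start (143299759 to 143300018) had -0.52 with a derived SE of 0.72 in the authors' deposited table. At the Kcnq1 end towards Cdkn1c, 3 regions had -0.52 (143422662 to 143422983, derived SE 0.61), 0.70 (143423057 to 143423557, derived SE 0.53) and -0.35 (143425712 to 143426818, derived SE 0.35) in the authors' deposited table, each with an FDR of 1. The first 2 of them are close neighbours with opposite signs, and each interval includes 0.

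Cdkn1c, a cyclin-dependent kinase inhibitor of the maternal allele, had no region in its body, and the nearest was 31521 bp away. No region lay within 5 kb of its neighbours Slc22a18, a transporter gene, and Phlda2, a gene that limits placental growth. On the other side of Kcnq1, a stretch of 164.7 kb (143017799 to 143182496) with Cd81, Tssc4 and Trpm5 held no region. Beyond it, a region over Ascl2, a transcription factor of the placenta, had 16.3 CPM and a log2 fold change of 0.30 (derived SE 0.25, FDR 1) in the authors' deposited table. The region in Tspan32, a tetraspanin gene, had 18.4 CPM and -0.25 (derived SE 0.23, FDR 1) in the authors' deposited table.

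In the Snrpn domain the region at the shared start of Snurf and Snrpn was not called. Snrpn encodes a protein of the splicing machinery and Snurf is read from the same transcript, both from the paternal allele. The region (60002663 to 60005590) ran from 391 bp before the start to 2536 bp after it, and had 41.3 CPM, percentile 92.7 of all regions. Its log2 fold change in the authors' deposited table was -0.15 (derived SE 0.15, interval -0.44 to 0.13, p = 0.293, FDR 1). This interval spans ratios from 0.737 to 1.10. The smallest called change among 5624 regions of like signal was 0.50 in the authors' deposited table.

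RefSeq lists 3 further, upstream Snrpn starts. The nearest of them (start site 60047978) lay 2321 bp from a region of 11.8 CPM (60050299 to 60051054) whose value in the authors' deposited table was -0.06 (log2 fold change, derived SE 0.30, FDR 1). The others (60140225 and 60450177) lay 89171 and 26285 bp from the nearest region. Their 3 promoter windows were 83 to 84.7% identical to each other in global alignments, against 58 to 59.7% with the window at the Snurf start. That window in turn was 56.3 to 60.7% identical to those of Ndn, Magel2 and Mkrn3. How reads from such near copies were placed is not given in the sources used here. Across the Snrpn body 4 regions had log2 fold changes from -0.15 to 0.12 in the authors' deposited table. In the window's part past the end of Snrpn, away from its starts, a region lay inside Snhg14, the host gene of the antisense RNA. This region (59918702 to 59920115, 17.5 CPM) had 0.04 with a derived SE of 0.24 in the authors' deposited table.

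The long stretch between Snrpn and Ndn held 29 of the domain's 39 regions, most of them between genes (7 overlapped one). Of these, 7 reached 16 CPM, and their range of log2 fold changes was -0.67 to 0.20 in the authors' deposited table. The strongest (62069971 to 62075143, 5172 bp, 62.7 CPM, between genes) had -0.17 with a derived SE of 0.12 (p = 0.158, FDR 1) in the authors' deposited table. The next (61405173 to 61409611, 53.8 CPM, between genes) had -0.06 with a derived SE of 0.13 (FDR 1) in the authors' deposited table.

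A region of 37.3 CPM in the noncoding gene A230006K03Rik (61264451 to 61267844) had -0.01, with a derived SE of 0.16, in the authors' deposited table, and 0.04 relative to the rest of chromosome 7. Regions between genes had -0.09 (62025188 to 62027661, derived SE 0.16), -0.15 (61498411 to 61500109, derived SE 0.22) and 0.20 (62189388 to 62190466, derived SE 0.24) in the authors' deposited table, each with an FDR of 1. All of these intervals include 0.

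The smallest p of the 68 regions was found in the same stretch, in a region between genes (62141817 to 62144090, 23.7 CPM) 56507 bp from the nearest gene, the microRNA gene Mir344i. Its log2 fold change was -0.67 in the authors' deposited table (derived SE 0.20, interval -1.06 to -0.28, p = 0.000794), and its FDR of 0.160 missed the threshold. Of the 10249 regions of like signal, 0.605% lay as far from 0, but this region was picked for its small p among 68. With p-values adjusted by Benjamini-Hochberg over regions of at least 16 CPM alone it would be called (adjusted p = 0.0485), as would 296 of 18037 regions (1.64%). Under the other adjustments tried, its adjusted p ran from 0.194 to 1. Its neighbours were weaker in signal and differed from each other in sign. The one before it (62140407 to 62140950) had -0.54 at 5.09 CPM (p = 0.337) and the one after it (62159055 to 62160030) 0.32 at 10.1 CPM (p = 0.338) in the authors' deposited table.

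The largest absolute change of the domain was in a weak region of the noncoding gene A230057D06Rik (61718337 to 61718704, 3.42 CPM), at 1.22 with a derived SE of 0.70 (p = 0.0784, FDR 1) in the authors' deposited table. The Mir344 microRNA genes and the snoRNA genes of the window lay outside all regions. Of 13 microRNA genes, 2 (Mir344b and Mir344c) lay within 5 kb of a region, and of 4 snoRNA genes 0 did. Regions covered 1.86% of the window, at 15 per Mb, and the share of all genes this near a region was not computed. These counts therefore say little about the small RNA genes.

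Ndn and Magel2, paternally expressed genes of the MAGE family, and Mkrn3, a paternally expressed ubiquitin ligase gene linked to the timing of puberty, lay together in a stretch of 128.7 kb with no region. The nearest regions were 25518, 54220 and 31289 bp away in that order. A region beyond Mkrn3 (62451442 to 62451849), at 3.44 CPM, had 1.21 in the authors' deposited table with p = 0.0932. Past Peg12, another paternally expressed gene, which had no region within 5 kb, regions over the pseudogene Atp5l-ps1 (62474904 to 62476467, 20.5 CPM) and beyond it (62494583 to 62495969, 21.7 CPM) had -0.29 (derived SE 0.23) and -0.17 (derived SE 0.21) in the authors' deposited table, each with an FDR of 1.

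**Figure D2:**
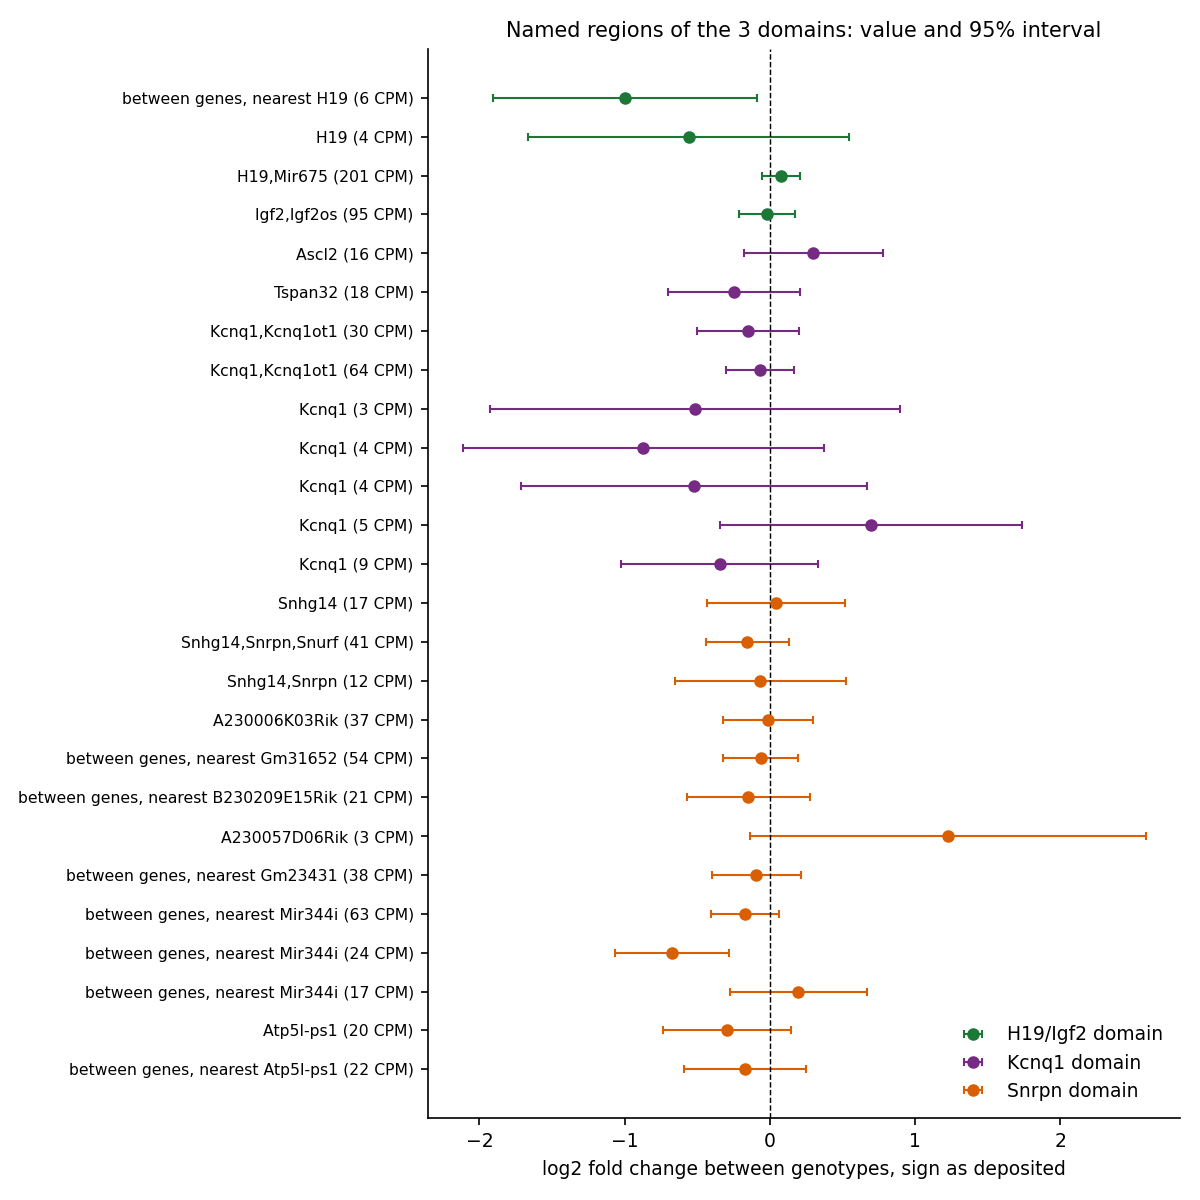
Log2 fold change between the genotypes (x axis, sign as deposited) of the 26 regions given in full, ordered by domain and position. Points are values of the authors' deposited table, bars their 95% intervals from derived errors, and labels give the genes overlapped and the CPM. The intervals of the region near H19 at -0.998 and of the region at -0.67 exclude 0, and those of the other regions include it.

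Regions were also counted within 5 kb of other imprinted genes and neighbours of the 3 domains, without the same count over all genes. Of 26 listed genes or gene groups, 25 were found in RefSeq and 10 had a region within 5 kb, some of them outside the windows. Their 15 distinct regions had 0 calls, with log2 fold changes from -1.12 to 0.42 and a median of -0.15, and 0 had an unadjusted p below 0.05, in the authors' deposited table. Among all regions these shares were 0.281% and 4.74%, at which 15 regions would give less than 1 of either, so the counts of 0 say little about these genes. The lowest was near Ins2, an insulin gene next to Igf2, at 3.71 CPM with a derived SE of 0.70. At Atp10a, a lipid flippase gene beyond Ube3a, the strongest region (58660018 to 58663334, 42.0 CPM) had 0.07 with a derived SE of 0.15 in the authors' deposited table. Ube3a, a ubiquitin ligase gene expressed from the maternal allele in neurons, and the Snord116 snoRNA genes had no region within 5 kb.

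Over the 68 regions, 0 were called at an FDR below 0.05, against 0.281% of all 68291 regions, which would give less than 1 call in 68. A normal approximation with typical errors also called 0. An unadjusted p below 0.05 was found in 2 of them, or 2.94%, against 4.74% of all regions. The median log2 fold change in the authors' deposited table was -0.06, with 44 negative (64.7%) and 24 positive values. The rest of chromosome 7 had a median of -0.05 over 4163 regions, 57.8% of them negative. All regions had a median of -0.01, with 50.8% negative. By domain the medians were -0.05 (H19/Igf2), -0.24 (Kcnq1) and -0.04 (Snrpn). The value of the Kcnq1 domain came mostly from its 16 regions under 16 CPM, whose median was -0.38, against -0.11 for the 4 stronger ones. Regions under 16 CPM had a median of -0.03 on the rest of chromosome 7 and of 0.02 over all regions.

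Of the 17 regions with at least 16 CPM, 13 were negative (76.5%), against 68.8% on the rest of chromosome 7 and 59.8% of all such regions. Among these 17, 0 were called in the authors' deposited table, against 0.976% of all regions of at least 16 CPM, and 1 had an unadjusted p below 0.05. The weakest of the 17 had 16.3 CPM and the strongest below that limit 15.2 CPM. Their intervals included 0 in 16 cases, and in 8 the whole interval lay within 0.5 of 0. The derived SE ran from 0.07 at the strongest region to 1.01 at a weak one. The 42 regions not given one by one had 2.16 to 15.2 CPM and log2 fold changes from -0.75 to 1.21 in the authors' deposited table, 24 negative and 18 positive.

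The domains differed in how densely they were marked. Summed region widths were 20.3% of the H19/Igf2 window, 3.36% of the Kcnq1 window and 1.86% of the Snrpn window. On the rest of chromosome 7 they were 3.61%. Summed signal was 3339, 418 and 219 CPM per Mb in that order, against 469 on the rest of chromosome 7. The H19/Igf2 window is only 100 kb wide and was drawn around its genes, so its density is set in part by the choice of limits. The broad Igf2 region runs past that window's end at 142.67 Mb and was counted whole. The width share and the signal per Mb of the H19/Igf2 window are therefore overstated.

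**Figure D3:**
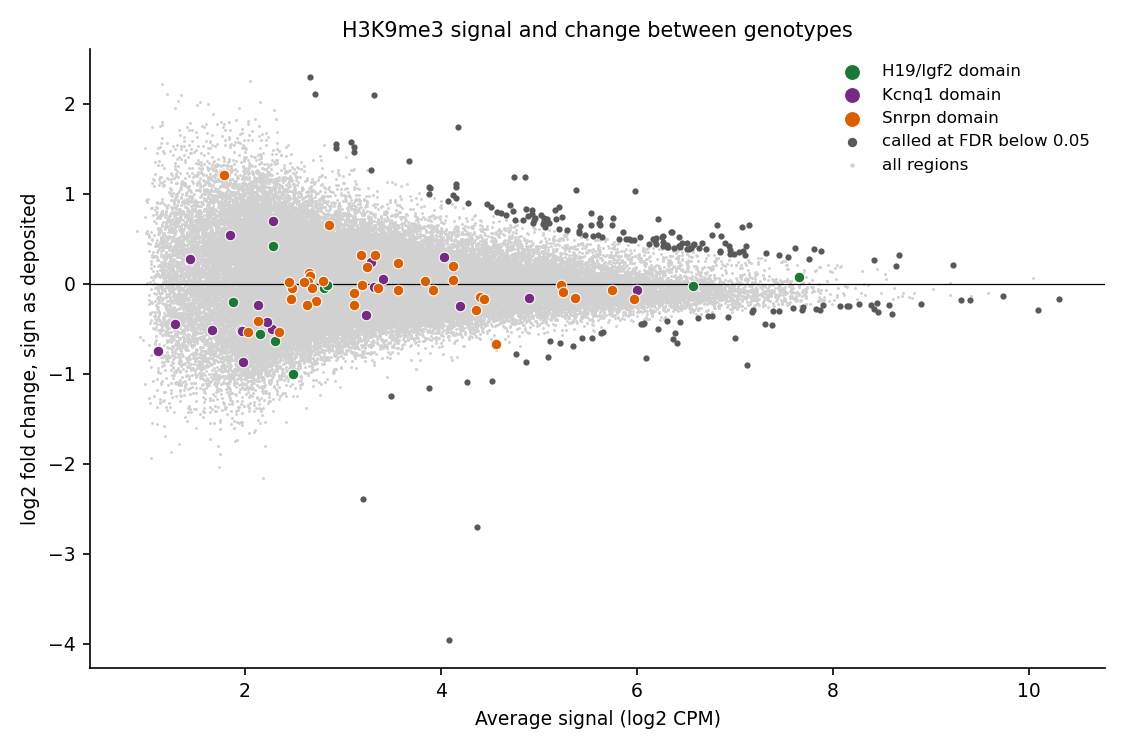
Log2 fold change (y axis, sign as deposited) against average signal (x axis, log2 CPM) in the authors' deposited table. Coloured points are the 68 regions of the 3 domains, dark points the 192 called regions and light points all regions. No coloured point is a called region, and the spread of the coloured points narrows with signal as that of all regions does.

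The regions at H19, the Kcnq1ot1 start and the start of Snurf and Snrpn were set beside the strongest region at each of 10 other imprinted genes, chosen with their values known, so the differences are given with intervals and no p. The log2 fold change at H19 exceeded that at Mest, which encodes a hydrolase-like protein, by 0.97 (95% interval 0.77 to 1.18), and that at Gnas, which encodes a G protein subunit, by 0.37 (0.18 to 0.55). The value at the Kcnq1ot1 start exceeded that at Mest by 0.83 (0.54 to 1.11) and that at the start of Snurf and Snrpn exceeded it by 0.74 (0.41 to 1.07). The difference from Impact, a translation regulator with the lowest value of the 10, was 4.03 at H19, 3.88 at Kcnq1ot1 and 3.80 at Snurf and Snrpn.

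From Gnas the values at Kcnq1ot1 (0.22, interval -0.05 to 0.49) and at Snurf and Snrpn (0.14, interval -0.18 to 0.45) could not be told apart at this precision. The same held for Igf2r and Airn, which share a region, where the differences were 0.10 at H19 (interval -0.11 to 0.30), -0.05 at Kcnq1ot1 (-0.33 to 0.23) and -0.13 at Snurf and Snrpn (-0.46 to 0.19). Zdbf2, a paternally expressed gene whose control region is methylated on the paternal copy as at H19, had 0.75 (FDR 0.0705) in the authors' deposited table. The value at H19 minus that at Zdbf2 was -0.68 (interval -1.10 to -0.26). For Peg10 (log2 fold change -0.0075) and Grb10 (-0.0136), each interval of the difference included 0. For H13 (-2.71) and Zfp787 (-0.82), each excluded 0. The strongest regions at Impact, H13, Mest, Zfp787 and Gnas were called in the authors' deposited table, and those at the other compared genes were not.

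**Figure D4:**
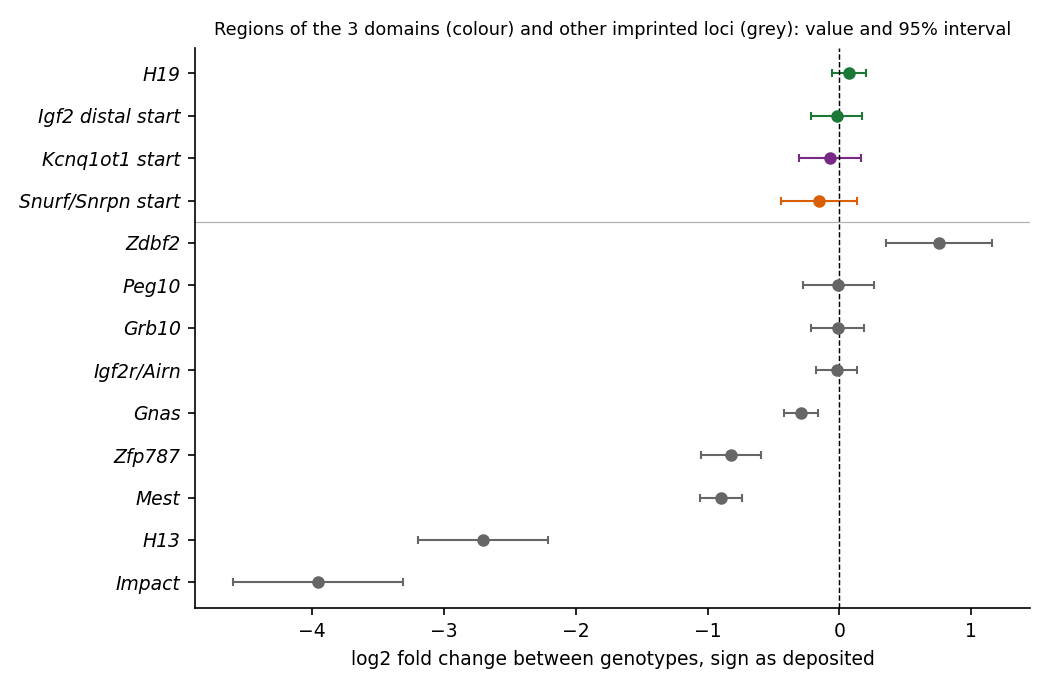
Log2 fold change (x axis, sign as deposited) of the strongest regions at H19, the upstream Igf2 start and the Kcnq1ot1 start and of the region at the Snurf and Snrpn start (coloured, above the line), and of the strongest region at other imprinted genes (grey, below it). Points are values of the authors' deposited table and bars 95% intervals from derived errors. The coloured points lie between -0.15 and 0.08, and the grey ones between -3.95 at Impact and 0.75 at Zdbf2.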

How the data were processed

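Per the labels' protocols, formaldehyde-fixed chromatin was sonicated and immunoprecipitated with an Abcam H3K9me3 antibody, input was taken before the antibody, and NEBNext Ultra libraries were read as 75-nt pairs on an Illumina HiSeq. The submitters' processing notes list the build mm10 and, with neither role nor order, bedtools 2.25.0, HOMER 4.8, Bowtie2 2.2.6 and edgeR (version not given). Per the file headers, the authors deposited a log2 fold change, a log2 CPM, a p-value and an FDR for each of 68291 regions. The libraries compared, the use of input and the direction of the fold change are not stated there, and 0 columns hold single libraries, so depth per library and replicate spread were not analysed here.

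A standard error was derived as the absolute log2 fold change over the normal deviate of the authors' p-value where that was at least 1 (19017 regions), elsewhere as the median over regions within 0.25 in log2 CPM. Recomputed Benjamini-Hochberg values gave the same number of calls, 192. The change at which a call is put is the typical error at that signal times the deviate of the largest called p, and single regions were called below it. Gene bodies came from RefSeq on GRCm38.p6. Coordinates are as deposited and may count from 0 or 1. Regions of at least 16 CPM, those within 5 kb of a start of the 9 genes, and those of smallest p or largest change per domain are given in full. Genes without a listed start were searched at both ends of the body. Members and lists were chosen with earlier results of these data known. Python 3.11.15, numpy 2.4.6, scipy 1.17.1 and pandas 2.3.3 were used.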

Additional observations from a re-analysis of the deposited data

How the results depend on the processing

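The count of 0 called regions was also found at an FDR below 0.01, without chromosomes 11 and 16, under Holm adjustment and with a normal approximation and typical errors. It became 1, the region at 62141817 to 62144090 in the Snrpn domain, when p-values were adjusted over regions of at least 16 CPM only. Of the 26 regions given in full, 24 kept their sign relative to the rest of chromosome 7 and 22 relative to regions of like signal (within 0.25 in log2 CPM, outside chromosomes 11 and 16), and none was called in these alternatives. Signs turned at the Igf2 region (0.036 and 0.075 in that order), in A230006K03Rik (0.044 and 0.0587), and relative to like signal also at the Kcnq1ot1 start (0.0127) and at 61405173 to 61409611 (0.0097); the subtracted medians alone turn these small values. With the median of regions within 0.5 on all chromosomes, an alternative chosen after seeing the data, 24 kept their sign; Igf2 (0.0597) and A230006K03Rik (0.0378) turned, while the Kcnq1ot1 start (-0.0033) and 61405173 to 61409611 (-0.00095) did not. The median over all 68 regions, -0.06, ranged from -0.09 (at least 16 CPM) to -0.01 (relative to chromosome 7). The regions assigned to a listed gene numbered 28, 27 with gene bodies alone and 29 within 10 kb. No paired analysis was possible because the table holds no values of single libraries, and leaving out each replicate was not run for the same reason. With typical errors, calls are put at changes of about 0.26 at the H19 region and 0.46 at the Kcnq1ot1 start.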
